A study of Mus musculus with 10 samples.

Results

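TGF-beta, BMP and activin signalling was followed through 51 genes in the mouse retina. All 51 were found by gene symbol among the 25905 genes of the deposited table. They were sorted by role into 12 ligands, 13 receptors and co-receptors, 12 SMADs and SMAD regulators, 10 antagonists and latency proteins, and 4 ID targets. Bmp1, which encodes a protease and neither a ligand nor an antagonist, was placed with the antagonists and latency proteins. The 10 libraries came from the left and right retinas of 5 wild-type C57BL/6J mice, numbered 61, 64, 65, 66 and 68, at postnatal day 34. In every mouse 1 eye had worn a −20 dioptre lens for 10 days from postnatal day 24, which defocuses the image behind the retina, and the other eye had worn none. The side of the lens is not stated in the labels. The groups are therefore 5 left and 5 right retinas, each side may hold lens-wearing and untreated eyes, and no difference between sides can be read as an effect of the lens. For the right retina of mouse 64, damaged reads had been removed from 1 raw file.

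Ligands of this family are secreted dimers that bring together type I and type II serine/threonine kinase receptors. TGF-betas and activins signal mainly through SMAD2 and SMAD3, BMPs mainly through SMAD1, SMAD5 and SMAD9, and both kinds of complex enter the nucleus with SMAD4. Secreted antagonists and latent complexes limit the ligands outside the cell, while SMAD6, SMAD7, the SMURF ligases and SKI proteins limit the signal inside it. In the eye, BMPs pattern the retina and ciliary body, and TGF-beta is a regulator of matrix in sclera and of vessels. Expression of BMP genes in retina and pigment epithelium has been studied in connection with eye growth.

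Values are in CPM, the count of a gene scaled to a common library total. As read from the steps between low values, 89.2 to 113.4 counts lay behind 1 CPM. Listed genes held about 29500000 to 37100000 counts per library. They summed to 321661 to 346696 CPM, so most of the total behind CPM lay outside them. Of the 16 neuronal markers of the retina, 15 had a mean of at least 1 CPM, and their sum was 9019 to 10650 CPM. Markers of other tissues were present and uneven. The 8 lens markers summed to 6.95 to 43.8 CPM in left and 23.3 to 764.9 CPM in right retinas. The 764.9 CPM was in the right retina of mouse 65, and the next highest was 107.3 CPM in the right of mouse 66. All 8 were lowest in the left retinas of mice 65 and 68, and Lim2 was under 3 counts in at least 1 library. Skeletal muscle markers summed to 1.83 to 4.18 CPM, save for the left retina of mouse 68 with 78.8 CPM. In whole retina, fewer cells of a type and less RNA per cell cannot be told apart.

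Receptors and SMADs had higher summed levels than ligands and antagonists. Levels of different genes were compared per length, as CPM per kb of exon, because CPM grow with transcript length. The summed level was 28.7 to 30.4 CPM per kb for receptors and 26.3 to 30.0 CPM per kb for SMADs and their regulators, against 9.46 to 11.95 for ligands, 6.06 to 7.19 for ID genes and 4.91 to 6.33 for antagonists and latency proteins. These ranges over 10 retinas do not overlap between the first 2 roles and the other 3. A sum grows with the number of genes listed, which was 13 for receptors and 4 for ID genes. Single genes did not follow the sums. Id2, the lowest ID gene by mean at 0.865 CPM per kb, was below Bmpr1a (7.98) but above Bmpr1b (0.611) and Tgfbr2 (0.201). Of the 51 genes, 42 had a mean of at least 1 CPM and were tested; the other 9 were Bmp2, Bmp4, Bmp6, Tgfb1, Smad6, Nog, Chrd, Grem1 and Fst.

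**Figure D1:**
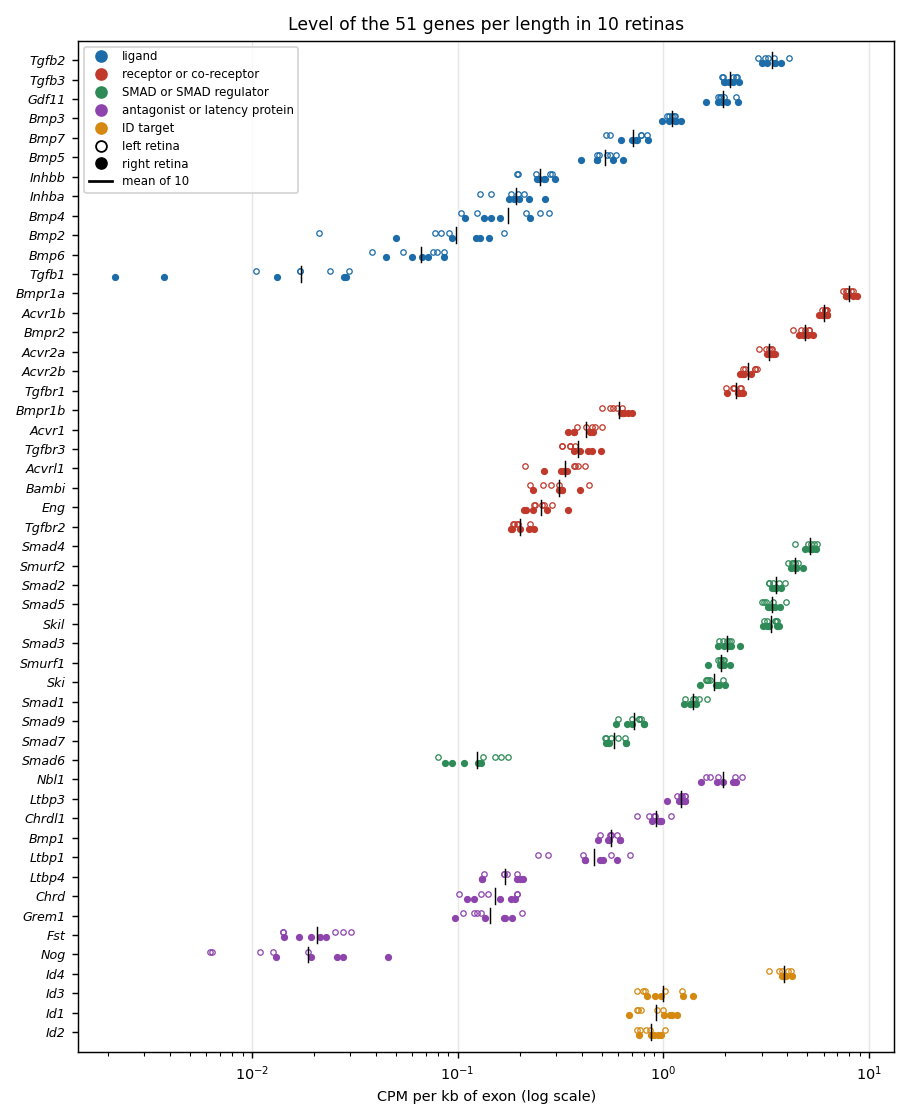
Level of each of the 51 genes in CPM per kb of exon on a log scale, grouped by role, with open points for 5 left and filled points for 5 right retinas and a bar at the mean of 10. Bmpr1a has the highest mean, 7.98 CPM per kb, and Tgfb1 the lowest, 0.0174 CPM per kb.

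Among the ligands, Tgfb2 had the highest level, 3.37 ± 0.357 CPM per kb (SD over 10 retinas of 5 mice). It took 57.7% to 64.1% of the summed per-length level of the 3 TGF-beta isoforms. Tgfb3 followed at 2.11 ± 0.149 CPM per kb, and Gdf11, a ligand that restrains the number of retinal ganglion cells in development, at 1.95 ± 0.201 CPM per kb. The values of these last 2 overlapped. Tgfb1, the isoform best known from blood and immune cells, measured 0.0109 to 0.149 CPM, which is 1 to 16 counts a library, and 2 of 10 libraries were under 3 counts. On the per-length scale its highest retina, at 0.0295 CPM per kb, lay below the lowest retina of Tgfb2, at 2.89.

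Bmp3, an atypical BMP that opposes the signal of others, was the highest BMP, at 1.10 ± 0.066 CPM per kb and 36.7% to 46.2% of the summed level of the 6 BMPs. Bmp7, needed for early eye formation, stood at 0.711 ± 0.111 and Bmp5 at 0.519 ± 0.07 CPM per kb. Bmp4 (0.234 to 0.628 CPM), Bmp2 (0.0752 to 0.595 CPM) and Bmp6 (0.15 to 0.336 CPM) rested on 22 to 61, 7 to 55 and 14 to 32 counts a library. For Bmp2 the lowest value was that of the left retina of mouse 65, whose fellow retina had 0.457 CPM. The activin subunits Inhba and Inhbb stood at 0.191 ± 0.0382 and 0.253 ± 0.0352 CPM per kb.

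Receptors were uneven in level. Bmpr1a, a type I BMP receptor, was the highest of all 51 genes per length, at 7.98 ± 0.399 CPM per kb. Before division by length Bmpr2 was higher, with a mean of 87.25 against 50.66 CPM. Its exon length was 17983 bases, against 6351 for Bmpr1a. The activin type I receptor Acvr1b, also called ALK4, followed at 6.04 ± 0.18, and the type II receptors Bmpr2, Acvr2a and Acvr2b stood at 4.85 ± 0.308, 3.27 ± 0.159 and 2.57 ± 0.185 CPM per kb. For TGF-beta itself the 2 receptor types were far apart. Tgfbr1 measured 2.26 ± 0.15 CPM per kb and its type II partner Tgfbr2 0.201 ± 0.0191 CPM per kb, and no retina of Tgfbr1 was as low as any of Tgfbr2. The receptors of vessels were also low, Acvrl1 (ALK1) at 0.334 ± 0.06 and its co-receptor Eng at 0.255 ± 0.0399 CPM per kb. Bambi, a receptor without a kinase that blocks signalling, stood at 0.309 ± 0.0662 CPM per kb.

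Of the SMADs, Smad4, the common partner, was highest at 5.17 ± 0.346 CPM per kb. In the BMP branch Smad5 took 59.0% to 65.8% of the summed level of Smad1, Smad5 and Smad9, and in the TGF-beta and activin branch Smad2 took 59.7% to 65.7% of that of Smad2 and Smad3. The inhibitory SMADs were low, with Smad7 at 0.578 ± 0.0582 and Smad6 at 0.124 ± 0.0324 CPM per kb, the latter on 24 to 56 counts a library. The ubiquitin ligase Smurf2 (4.36 ± 0.201) was above Smurf1 (1.91 ± 0.115), and the repressor Skil (3.35 ± 0.217) above its relative Ski (1.75 ± 0.162 CPM per kb), without overlap between retinas in either pair.

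Outside the cell, the secreted antagonists Nog and Fst were near the limit of detection. Nog, which encodes noggin, measured 0.0105 to 0.0781 CPM, or 1 to 7 counts a library, and was under 3 counts in 5 of 10 libraries. Fst, the activin antagonist follistatin, measured 0.0648 to 0.14 CPM, or 6 to 13 counts. The BMP antagonists Grem1 (0.402 to 0.855 CPM) and Chrd, chordin (0.638 to 1.22 CPM), were low but measured, on 36 to 81 and 62 to 130 counts a library. The antagonists with higher levels were Nbl1 (also called Dan), at 1.95 ± 0.302, and Chrdl1, a chordin relative also called ventroptin, at 0.924 ± 0.0914 CPM per kb. Bmp1, a protease that cleaves chordin and procollagens, stood at 0.554 ± 0.0452 CPM per kb. Of the latent TGF-beta binding proteins Ltbp3 was highest, with 59.7% to 74.7% of the summed level of Ltbp1, Ltbp3 and Ltbp4.

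The ID genes encode helix-loop-helix proteins that hold back differentiation factors, and their transcription is a standard readout of BMP signalling. Id4 was the highest, at 3.84 ± 0.277 CPM per kb, with 53.4% to 62.6% of the sum of the 4. Id3, Id1 and Id2 stood at 0.995 ± 0.223, 0.924 ± 0.171 and 0.865 ± 0.0956 CPM per kb, and their values overlapped.

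Promoter windows from RefSeq (GRCm38.p6) are given for 3 genes: the ligand with the lowest level, the ID gene with the highest level and the member that varied most between mice. Each is the 250 bases before a RefSeq start, on the strand of the gene. Tgfb1 is at chr7:25686752-25687001 (+), Id4 at chr13:48260866-48261115 (+), and Ltbp1 at chr17:75005279-75005528 (+) for the first start and chr17:75178531-75178780 (+) for an inner start. The values per gene do not separate the 2 starts of Ltbp1. Capitals mark GGCGCC, a GC-rich motif bound by SMAD1 and SMAD5, or CAGACA in either orientation (TGTCTG on the other strand), a motif of the AGAC type bound by SMAD3 and SMAD4.
Tgfb1: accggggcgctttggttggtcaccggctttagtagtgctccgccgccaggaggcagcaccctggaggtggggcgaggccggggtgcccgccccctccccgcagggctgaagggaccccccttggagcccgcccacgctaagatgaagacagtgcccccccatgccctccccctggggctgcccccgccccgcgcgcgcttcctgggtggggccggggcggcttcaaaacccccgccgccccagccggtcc
Id4: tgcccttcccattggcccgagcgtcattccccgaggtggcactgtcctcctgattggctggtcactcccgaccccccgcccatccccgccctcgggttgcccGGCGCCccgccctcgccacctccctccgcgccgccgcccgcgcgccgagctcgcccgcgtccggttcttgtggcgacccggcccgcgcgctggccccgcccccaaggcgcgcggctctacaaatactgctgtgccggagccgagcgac
Ltbp1 first start: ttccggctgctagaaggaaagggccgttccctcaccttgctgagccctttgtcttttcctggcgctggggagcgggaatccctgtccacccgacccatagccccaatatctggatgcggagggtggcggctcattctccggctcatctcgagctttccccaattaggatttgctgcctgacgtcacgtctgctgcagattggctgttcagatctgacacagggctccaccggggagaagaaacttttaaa
Ltbp1 inner start: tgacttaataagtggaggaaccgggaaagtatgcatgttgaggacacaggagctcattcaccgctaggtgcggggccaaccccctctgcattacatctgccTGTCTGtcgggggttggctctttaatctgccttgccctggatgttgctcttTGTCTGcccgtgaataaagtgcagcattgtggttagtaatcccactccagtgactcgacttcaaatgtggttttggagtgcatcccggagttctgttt

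The Id4 window held GGCGCC once, at 148 to 143 bases before the start, and the inner window of Ltbp1 held TGTCTG 2 times. Windows were listed for 35 of the 51 genes. GGCGCC, on both strands, was in those of 13 genes (37.1%), among them Id2, Id4, Bmpr1a, Bmpr2, Tgfbr1, Smad5 and Smad9, against 20.4% of 9745 tested genes with a window and 10.9% of all 27025 genes. The windows of the 35 genes had a median GC content of 68%, against 60.0% for tested genes and 52.4% for all. CAGACA was in those of 6 genes (17.1%), among them Tgfb2, Bmp5 and Bmpr1b, against 15.6% of tested genes and 19.3% of all. The palindrome GTCTAGAC, which holds AGAC on both strands, was in 0 of the 35, 0.216% of tested genes and 0.2% of all. A motif match here is a description of letters and not a bound site.

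Right and left retinas were compared within mice, on log2(CPM + 1), to see whether the side of the eye set the level of any member. Differences in log2 units are on this scale, which understates the change of genes near 1 CPM. None of the 42 tested members passed limma's test over all 14210 tested genes (smallest adjusted p = 0.9996), beside 0% of all genes. At an unadjusted p under 0.05 there were 2 members, Tgfbr3 and Bmpr1b, or 4.76% against a background of 2.34% of all genes. Higher on the right in 5 of 5 mice were 2 members, Tgfbr3 and Acvr2a (4.76% against 2.78% of all genes), and lower in 5 of 5 were 0 (2.01% of all genes). The 95% interval of the difference lay within ±0.25 log2 units for 35 of 42 members (83.3%, and 83.5% of all genes) and within ±0.5 for 41, with Ltbp1 the exception. P-values measure the spread over these 5 pairs of retinas, which may include an effect of the lens if its side varied.

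**Figure D2:**
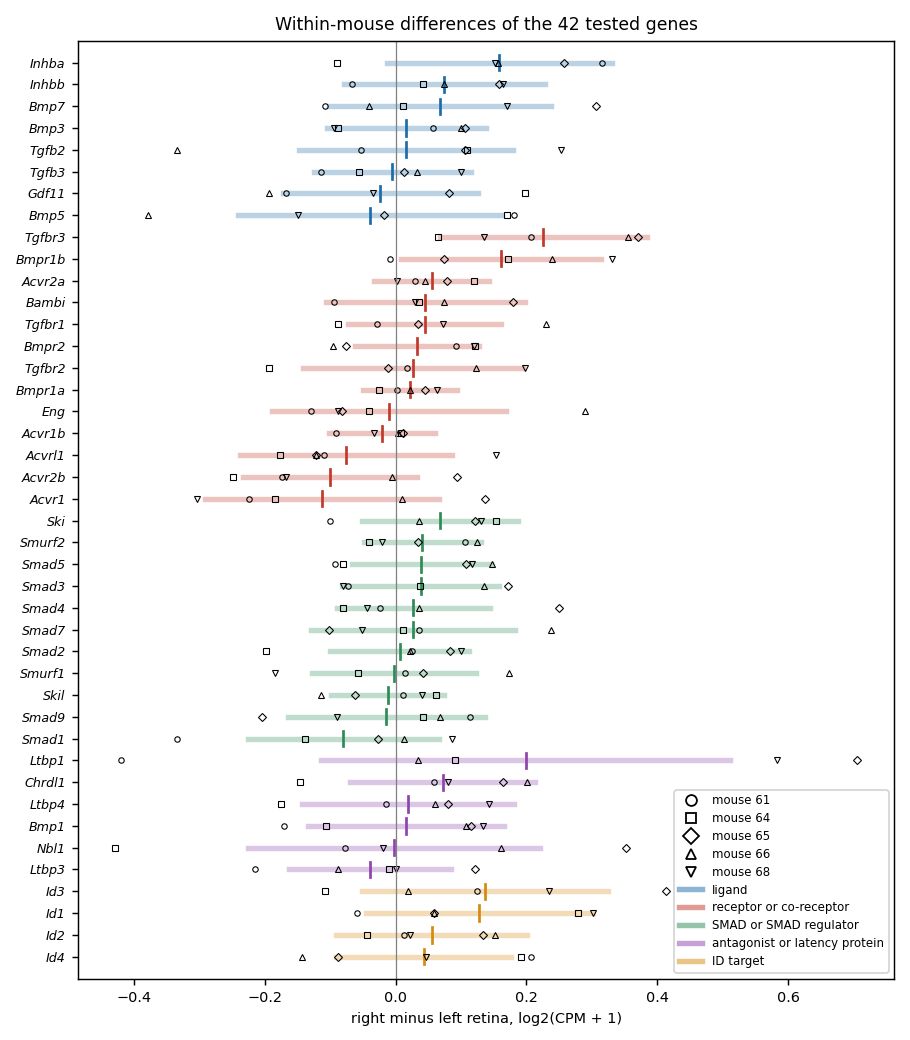
Right minus left difference in log2(CPM + 1) of the 42 tested genes by role. Symbols are the 5 mice, vertical bars the mean and shaded bars the 95% interval; the mean runs from −0.11 for Acvr1 to 0.23 for Tgfbr3, and the 2 values farthest from 0 are those of Ltbp1 in mice 65 and 68.

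Tgfbr3 encodes betaglycan, a co-receptor that presents TGF-beta2 and lets inhibin oppose activin. It measured 2.30, 2.43, 2.29, 2.09 and 2.10 CPM in the left retinas of mice 61, 64, 65, 66 and 68, and 2.81, 2.58, 3.25, 2.96 and 2.40 CPM in the right. The right retinas of mice 61, 64, 65 and 66 lay above every left one, and that of mouse 68 did not. The difference was 0.23 log2 units (SE 0.07, 95% interval 0.07 to 0.38), higher on the right in 5 of 5 mice, and did not pass (limma adjusted p = 0.9996). Bmpr1b, a type I BMP receptor, measured 3.73, 3.28, 3.54, 3.39 and 2.99 (left) against 3.71, 3.82, 3.78, 4.17 and 4.02 CPM (right). Its sides overlapped only through mouse 61, and the difference was 0.16 (SE 0.07, 95% interval 0.01 to 0.31). Acvr2a, a type II receptor for activins, measured 18.9, 16.6, 18.0, 19.2 and 18.6 (left) against 19.3, 18.1, 19.0, 19.8 and 18.6 CPM (right). Its sides overlapped widely, and the difference was 0.06 (SE 0.04).

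The other 10 receptors had mean differences from −0.11 (Acvr1, the type I receptor also called ALK2) to 0.05 (Bambi). Bmpr1a, at 49.3, 49.6, 47.4, 51.9 and 53.1 (left) against 49.3, 48.8, 49.0, 52.7 and 55.6 CPM (right), had the narrowest interval of the 13 receptors, −0.05 to 0.09. Both eyes of mouse 68 were the highest of their side for this gene.

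Of the ligands, Inhba, the activin A subunit, had the lowest p between sides. It measured 0.823, 1.34, 1.26, 1.17 and 0.925 (left) against 1.27, 1.202, 1.70, 1.42 and 1.14 CPM (right). The right retina was higher in 4 of 5 mice, by 0.16 log2 units on average (SE 0.08, 95% interval −0.01 to 0.33). The sides overlapped, and with a pseudocount of 0.1 CPM in place of 1 CPM the difference was 0.272. Gdf11 measured 7.45, 7.99, 7.76, 9.13 and 7.64 (left) against 6.52, 9.31, 8.28, 7.86 and 7.44 CPM (right), a difference of −0.02 (SE 0.07). Bmp5, a BMP of the 60A subgroup with Bmp6 and Bmp7, measured 2.14, 1.92, 1.95, 2.38 and 2.22 (left) against 2.56, 2.28, 1.92, 1.60 and 1.90 CPM (right). The right retina had more in mice 61 and 64 and less in the other 3, with a difference of −0.04 (SE 0.09). Tgfb2, the main TGF-beta by level, had values of 16.7 to 23.6 CPM and a mean difference of 0.02 (SE 0.07), which was −0.0928 without mice 65 and 68.

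SMAD genes and their regulators lay closer together. For all 11 tested, the 95% interval lay within ±0.25. Smad1 measured 10.2, 9.33, 8.71, 8.87 and 7.98 (left) against 7.87, 8.39, 8.53, 8.96 and 8.54 CPM (right), a difference of −0.08 (SE 0.07) that came mostly from mouse 61. Ski, a co-repressor of SMADs, measured 8.998, 9.07, 9.13, 10.8 and 9.41 (left) against 8.33, 10.2, 10.0, 11.1 and 10.4 CPM (right), a difference of 0.07 (SE 0.05) with the right higher in 4 of 5 mice. Skil, at 34.1, 33.7, 30.8, 34.4 and 30.0 (left) against 34.4, 35.2, 29.4, 31.8 and 30.9 CPM (right), differed by −0.01 (SE 0.04). The values of these 3 genes overlapped between sides.

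Among antagonists, Chrdl1 measured 6.11, 7.38, 5.72, 5.05 and 6.17 (left) against 6.40, 6.57, 6.54, 5.96 and 6.58 CPM (right) (difference 0.07, SE 0.06). Nbl1 measured 4.88, 4.51, 3.26, 3.43 and 3.75 (left) against 4.58, 3.10, 4.44, 3.95 and 3.69 CPM (right). Its fellow eyes differed in opposite directions, by −0.43 in mouse 64 and 0.35 in mouse 65, so that the mean was −0.003 (SE 0.1). Ltbp4 measured 0.865, 1.083, 1.13, 1.25 and 1.084 (left) against 0.846, 0.845, 1.25, 1.34 and 1.302 CPM (right), with a difference of 0.02 (SE 0.07) and overlapping sides.

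All 4 ID genes had a mean above 0, and none passed. Id1 measured 0.865, 0.877, 1.16, 1.082 and 0.904 (left) against 0.791, 1.28, 1.25, 1.17 and 1.35 CPM (right), a difference of 0.13 (SE 0.08). Id2 measured 2.10, 2.49, 1.997, 1.87 and 1.81 (left) against 2.13, 2.39, 2.29, 2.19 and 1.85 CPM (right), a difference of 0.06 (SE 0.07). Both were higher on the right in 4 of 5 mice, and their sides overlapped. For Id4 the difference was 0.04 (SE 0.06). For Id3 it was 0.14 (SE 0.08), but 0.0673 without mouse 65 and 0.0118 without mice 65 and 68. Id3 was among the genes lowest in the left retinas of those mice, described below, so a fall follows largely from that.

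Taken by counts, 28 of 42 members (66.7%) had a mean difference above 0, against 51.1% of all tested genes, and the median was 0.027 against 0.0017 log2 units. By mouse, the members' median was −0.026, −0.032, 0.083, 0.052 and 0.068 in mice 61, 64, 65, 66 and 68. The median of all tested genes in the same mice was −0.039, −0.022, 0.044, 0.037 and −0.0088, with the sign of the members' median in all but mouse 68. Without mice 65 and 68 the count was 22 of 43 (51.2%), against 45.8% of all genes. Those mice hold a pattern, described below, that was noticed after values were seen. With each library rescaled to the total of its listed genes it was 32 of 42 (76.2%), against 59.7%.

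**Figure D3:**
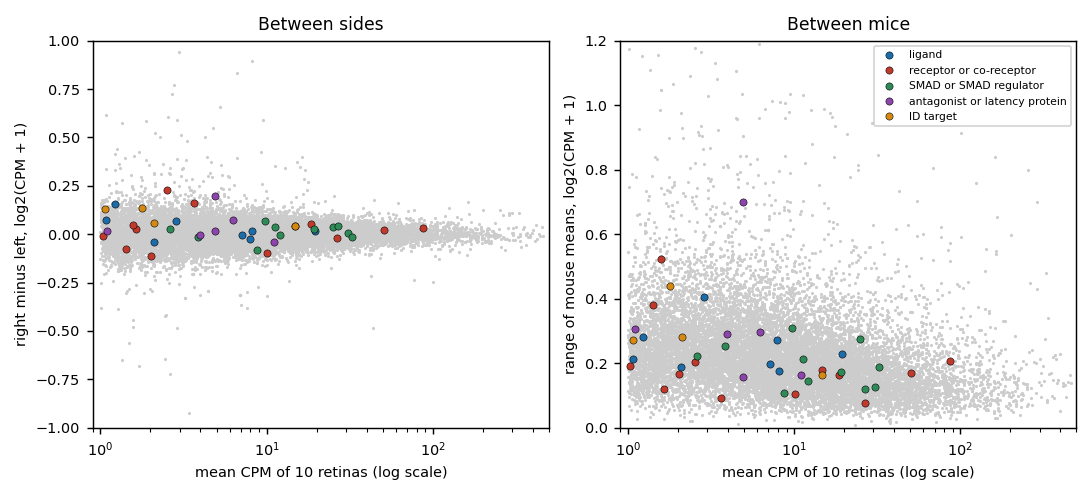
Mean CPM of 10 retinas on a log scale against the difference between sides and against the range of the 5 mouse means, for all tested genes (grey) and the 42 tested members (coloured by role); 40 and 70 genes lie outside the axes of the left and right panels. No member lies outside, and in the right panel Ltbp1, at 0.70, has the widest range of the members.

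Because the lens side is not given, the difference between fellow eyes was also described without its sign. The mean absolute difference over 5 mice had a median of 0.11 log2 units over the members and 0.11 over all tested genes. For 28 of 42 members (66.7%) fellow eyes differed by under 0.25 log2 units in each of the 5 mice, as they did for 64.3% of all genes. The members with the widest difference in any 1 mouse were Ltbp1 (0.71, mouse 65), Nbl1 (−0.43, mouse 64), Id3 (0.41, mouse 65), Bmp5 (−0.38, mouse 66) and Tgfbr3 (0.37, mouse 65). The right retina of mouse 65 also had the highest sum of lens markers, and its part in these differences was not tested.

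Several members shared 1 pattern, noticed after their values were seen. For 7 of the 42 tested members (16.7%) the 2 lowest of all 10 libraries were the left retinas of mice 65 and 68, against 3.1% of all tested genes. These 7 were Ltbp1, Bmp7, Inhbb, Id3, Tgfb3, Smad2 and Smad5. The share was 14.3% (6 of 42) after rescaling either to the listed total or by the median ratio of libraries, against 3.01% and 2.55% of all genes.

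Ltbp1 secures latent TGF-beta to fibrillin fibres of the matrix. It measured 7.36, 5.93, 2.93, 4.33 and 2.64 CPM in the left retinas of mice 61, 64, 65, 66 and 68 and 5.26, 6.39, 5.41, 4.46 and 4.44 CPM in the right. The left retinas of mice 65 and 68 were below all others, and the left of mouse 61 above all. The difference between sides was 0.20 (SE 0.14, 95% interval −0.11 to 0.51), and −0.098 without mice 65 and 68. Bmp7 measured 3.11, 3.36, 2.20, 3.12 and 2.12 (left) against 2.82, 3.39, 2.96, 3.01 and 2.51 CPM (right). Its difference was 0.07 (SE 0.08), and −0.045 without those mice. Ltbp1 and Bmp7 were picked for low left values in mice 65 and 68. A lower difference without those mice follows largely from that choice.

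Inhbb, the activin B subunit, measured 1.22, 1.202, 0.827, 1.03 and 0.84 (left) against 1.12, 1.27, 1.04, 1.13 and 1.06 CPM (right). Id3 measured 2.21, 1.83, 1.42, 1.45 and 1.34 (left) against 2.49, 1.63, 2.22, 1.49 and 1.75 CPM (right). Without mice 65 and 68 the difference of Inhbb went from 0.0745 to 0.017. Inhbb and Id3 were picked for low left values in those mice, so a fall without them follows largely from that choice. In both genes the right retinas of mice 65 and 68 lay within the range of the other mice. Tgfb3 ran from 6.49 to 7.84 CPM and Smad2 from 28.7 to 34.1 CPM, so that for these the 2 low retinas stood apart by little.

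Markers of some other tissues moved with this pattern, and their part in it was not tested. Of the 5 ciliary body markers 3 (Optc, Wfdc1 and Zic1) were lowest in the same 2 retinas. Their sum over all 5 was 17.7 and 19.1 CPM in the left retinas of mice 65 and 68 and 21.9 to 37.2 CPM in the other 8. Optc, a vitreous proteoglycan made by the ciliary epithelium, was at 0.505 and 0.606 CPM there and at 4.95 to 15.95 CPM elsewhere. Of 9 fibroblast markers, none of them under 3 counts anywhere, 5 (Col1a2, Dcn, Fmod, Ogn and Fbln1) were lowest in the same retinas, with sums of 14.1 and 14.5 CPM against 23.3 to 31.9 CPM. All 8 lens markers, 3 of 8 Müller glia markers (Vim, Apoe and Clu) and 0 of 16 neuronal markers did the same. So did 1 of 10 pigment epithelium, 1 of 10 endothelial, 1 of 7 microglia and 1 of 4 astrocyte markers. Among pericyte and skeletal muscle markers it was 0 of 6 and 0 of 7. Fbn1, which encodes the fibrillin that Ltbp1 binds, was at 6.98 and 8.05 CPM in the left retinas of mice 65 and 68. It was at 12.9 to 24.8 CPM in the other 8.

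**Figure D4:**
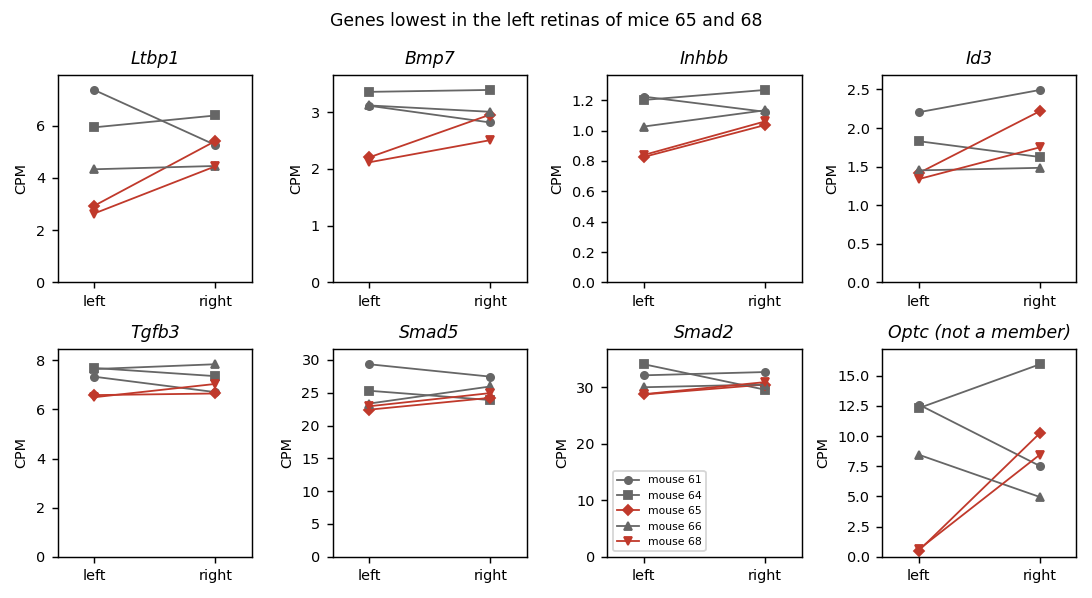
CPM in left and right retinas, joined within each mouse, of the 7 members whose lowest libraries were the left retinas of mice 65 and 68 (red), and of Optc; y axes start at 0. Ltbp1 and Optc stand apart most, with Ltbp1 at 2.93 and 2.64 CPM and Optc at 0.505 and 0.606 CPM in those 2 retinas.

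Mice were compared with each other by limma's moderated F-test, with the spread between the retinas of a mouse as the error. In every mouse 1 of these retinas had worn the lens, so that spread may include an effect of the lens. No member passed (smallest adjusted p = 0.247, Bambi), beside 0.57% of all genes. At an unadjusted p under 0.05 there were 6 members (14.3%), namely Bmp7, Bmpr1a, Bambi, Smad5, Skil and Ltbp1, near the background of 13.8% of all genes. The median range of the mouse means was 0.20 log2 units for the members and 0.21 for all genes. Bambi measured 2.21, 1.57, 1.32, 1.44 and 1.14 (left) against 2.004, 1.63, 1.63, 1.57 and 1.18 CPM (right). Both eyes of mouse 61 were highest and both of mouse 68 lowest of their side, a range of 0.52 log2 units between mouse means. Smad5 measured 29.4, 25.3, 22.4, 23.4 and 22.9 (left) against 27.5, 23.9, 24.2, 26.0 and 25.0 CPM (right), with both eyes of mouse 61 highest and a range of 0.27.

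The endothelial receptor Acvrl1 was lowest in mouse 68, with 0.904 (left) and 1.12 CPM (right), against 1.36 to 1.78 CPM in the other 8 retinas. Its range between mice was 0.38 log2 units and did not pass (limma F-test adjusted p = 0.36). The 10 endothelial markers summed to 86.9 and 88.8 CPM in mouse 68 and to 77.6 to 91.3 CPM in the others, and none was under 3 counts anywhere. Kdr and Flt1, with means of 44.29 and 26.25 CPM, made up most of this sum. Of the 10, Emcn alone had its lowest value in mouse 68, at 0.415 (left) with 0.668 CPM on the right. Cdh5 was at 0.787 (left) and 1.23 CPM (right) in that mouse, against 0.679 to 1.44 CPM in the others.

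The 9 members under 1 CPM were fitted with a filter and a pseudocount of 0.1 CPM, which let in 6 of them. None passed between sides or between mice. The difference between sides was 0.30 (SE 0.28) for Bmp2, −0.22 (SE 0.21) for Bmp4, 0.001 (SE 0.22) for Bmp6, −0.28 (SE 0.20) for Smad6, 0.01 (SE 0.19) for Chrd and 0.12 (SE 0.16) for Grem1. Each interval was wide, for Bmp2 −0.31 to 0.92, and without mouse 65 its difference was −0.0386. Bmp6 and Chrd also changed sign when 1 mouse was left out. Fst, Tgfb1 and Nog stayed under that filter.

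Another 104 gene symbols of the pathway were listed by role, with Ccn2 also under its older symbol Ctgf. Of these, 93 were among the deposited genes and 54 were tested. None passed between sides or between mice. At an unadjusted p under 0.05 there were 6 between sides (11.1%, against 2.34% of all genes), all 6 higher on the right: Thbs1, Itgb8, Neo1, Col1a1, Xiap and Itgav. Of the 333 such genes in all, 218 were higher and 115 lower. Between mice there were 9 (16.7%), near the 13.8% of all genes. Col1a1 is itself 1 of the 9 fibroblast markers, whose sum was higher on the right in 5 of 5 mice. Of the 8 fibroblast markers tested, 1 (Col1a2) was higher on the right in 5 of 5 mice, and Col3a1 was so in 2. The part of fibroblasts in this count was not tested. The 3 of lowest p between sides were Thbs1, thrombospondin 1, which activates latent TGF-beta (0.39, SE 0.10), Itgb8, the integrin subunit that releases it (0.19, SE 0.07), and Neo1, a receptor of repulsive guidance molecules (0.09, SE 0.04). Thbs1 measured 1.86, 3.11, 2.10, 2.30 and 2.52 (left) against 3.06, 2.84, 3.84, 3.77 and 3.56 CPM (right), higher in 4 of 5 mice. The 3 of lowest p between mice were the early response genes Klf10 (adjusted p = 0.081 by limma's F-test) and Junb (0.151), and Hey2 (0.218). Of 19 further ligands only 2, Bmp15 and Inha, had a mean of at least 1 CPM.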

How the data were processed

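RNA of 10 retinas was sequenced as stranded total RNA after ribosomal depletion, per the labels' protocols. The submitters' processing notes list STAR, Partek and GRCm38 (mm10); the rule for assigning reads to genes is not given in the sources used here. Values as deposited are CPM with an offset of 1e-04 added, not divided by length, for 25905 genes. Low values fall on steps of 1 count, but too few came out whole (91.0% to 91.8%, tolerance 0.1 of a step, up to 20 steps) for a count test.

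Values were fitted as log2(CPM + 1) with limma 3.58.1 in R 4.3.3 for genes whose mean reached 1 CPM (14210), with side and mouse as terms and a variance trend. P-values were two-sided and adjusted by Benjamini-Hochberg over all tested genes, with a threshold of 0.05. A fold on this scale understates the change of low genes. The mouse term pairs retinas of 1 animal, whose deviations correlated at 0.607, 0.143, 0.166, 0.172 and 0.311 in mice 61, 64, 65, 66 and 68. The scripts were tested on simulated data. CPM per kb used the exon length of GENCODE M21, taken as all bases in any exon of the gene. Genes with exons that few of their transcripts use come out lower on this scale, and other lengths were not tried.

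The 51 genes, their roles and the other lists were chosen with earlier results of these data known. Values in every library are given for members with 1 direction in 5 of 5 mice, the 2 of each role with the lowest p in each test and the 5 with the largest difference in any mouse; of other pathway genes, the 3 of lowest p in each test are named. Alternatives were other pseudocounts, filters and scalings, robust moderation, no block and fewer mice. Promoter windows overlapping an annotated exon were not printed, which left out those of Tgfb2, Id2 and Id3. The motif counts and GC contents used all listed windows, with or without such an overlap.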

Additional observations from a re-analysis of the deposited data

Results flagged for a closer look

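In each group of 5 retinas, the highest or lowest value of a member was set against the other 4 by its gap to the nearest of them. Of 102 such groups (51 genes on 2 sides) 7 held a retina that stood apart, and chance gives about 1 in 20, or about 5.1. Acvrl1 stood apart in both retinas of mouse 68, at 0.9035 CPM on the left (others 1.567 to 1.775) and 1.116 CPM on the right (others 1.361 to 1.456). In mouse 64, Tgfbr1 was low on the right at 13.27 CPM (others 15.13 to 15.85), and on the left Tgfbr2 was high at 1.84 CPM (others 1.514 to 1.603) and Grem1 high at 0.8552 CPM (others 0.4402 to 0.5365). In mouse 66, Ski was high on the left at 10.82 CPM (others 8.998 to 9.407) and Chrdl1 low on the right at 5.958 CPM (others 6.402 to 6.576).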

How the results depend on the processing

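No member passed between sides or between mice in any alternative run, and the smallest adjusted p of a member was 0.985 between sides and 0.195 between mice. Without the mouse as replicate block, 0 members and 0 genes were called between sides, with 188 genes at an unadjusted p under 0.05, and the block changed no call. Genes called between mice were 81 with all mice, 23 to 88 when 1 mouse was left out (23 without mouse 61, 39 without 68, 53 without 66), and 41 without mice 65 and 68. Members with 1 direction in every mouse were 2 of 42 with all mice, 2 to 8 without 1 mouse (8 without 61 or 64, 4 without 65), and 7 without mice 65 and 68, where fewer mice have to share a direction.

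The alternatives were run for the 21 members with values in every library and, chosen after seeing the data, for Tgfb2, Acvr1, Id4, Thbs1, Itgb8 and Neo1 and for the 6 members fitted at 0.1 CPM (scalings, block, moderation and fewer mice only). These differences changed sign, none of them called. With libraries rescaled to the listed total, Skil was at 0.000163 and Nbl1 at 0.00775, and by the median ratio Bmp6 was at −0.00101. Leaving out 1 mouse at a time gave −0.0782 to 0.0196 for Gdf11 (0.0129 without mouse 61), −0.0911 to 0.104 for Nbl1 (0.0161 and 0.00161 without mice 61 and 68), −0.0307 to 0.0133 for Skil (0.00018 without mouse 65), −0.0936 to 0.046 for Bmp5, −0.0122 to 0.0673 for Ltbp4, −0.043 to 0.104 for Tgfb2, −0.0386 to 0.506 for Bmp2, −0.198 to 0.132 for Bmp6 and −0.171 to 0.174 for Chrd. Without mice 65 and 68, Bmp7 was at −0.0454, Bmpr1a at −0.00054, Smad5 at −0.00869, Ltbp1 at −0.098, Ltbp4 at −0.0431, Tgfb2 at −0.0928, Bmp2 at −0.223 and Bmp6 at −0.206. The cause was not tested. Over these results and alternatives, 482 values were rated the same, 8 counts moved and 28 differences reversed. A difference was the same if it kept its direction and side of the threshold. As none was called in any run, that amounts to keeping its direction, whatever its size. A count was the same within a set factor of the main count, and the median of members within its SD over mice. The rescalings behind the count of members lowest in the left retinas of mice 65 and 68 were chosen after seeing the data. Those mice stand out by that same pattern, so runs without both are not independent of it. Depth limits Tgfb1, Nog and Fst, at 1 to 16 counts a library.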
